A study of Rattus norvegicus with 4 samples.

Results

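The phospholipase A2 family was followed in the pancreas of rats fed diets low, adequate or very high in iron. The 9 genes described here (Pla2g2a, Pla2g1b, Pla2g5, Pla2g10 and Pla2g12a, which encode secreted enzymes, and Pla2g4a, Pla2g6, Pla2g7 and Pla2g15, which encode the others) were taken by symbol from the 26514 gene names on the array, and each was read by 1 probe with 1 spot per array. The family was chosen by its ratios in these arrays, above all the high FeO ratios of Pla2g2a and Pla2g5, so that its values are given as a description and carry no test. Male Sprague-Dawley rats, weanling at the start per the study's methods, were fed for 3 weeks an iron-deficient diet (FeD, 5 ppm iron), an iron-adequate diet (FeA, 35 ppm) or an iron-overload diet (FeO, 20275 ppm, with carbonyl iron as the added source per the study's methods). The iron contents are those of the labels, and the content of the FeA diet that the methods give differs slightly. Pancreatic RNA of the 6 rats of a diet was combined into 1 pool, and each of the FeD and FeO pools shared 2 two-colour arrays with FeA, the dyes being exchanged between them. On array 1 of each comparison the diet was in Cy5 and FeA in Cy3, and on array 2 the reverse. The 2 arrays of a comparison are therefore repeat measurements of the same RNA: their spread is technical, the spread between rats is unknown, and no statement here has a test of the diets behind it. Both comparisons share the FeA pool.

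Phospholipases A2 cut the fatty acid from the middle position of a glycerophospholipid and leave a lysophospholipid. The released fatty acid is often arachidonic acid, the substrate of the cyclooxygenases and lipoxygenases that make prostaglandins, leukotrienes and hydroxy fatty acids. In the pancreas the best known member is the group IB enzyme, which acinar cells secrete as a zymogen and trypsin activates in the gut, where it digests dietary phospholipid. The group IIA enzyme is a different secreted protein, known as an acute-phase and antibacterial product of inflamed tissue and of Paneth cells, the antimicrobial cells of the intestinal crypt. Group IV, VI and XV enzymes work inside the cell, and Pla2g7 encodes an acetylhydrolase of platelet-activating factor that circulates in plasma.

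The RNA carried the marks of pancreas. All 14 acinar marker genes on the array (digestive enzymes and acinar transcription factors) were well above background in every pool, and the summed normalized intensity of the 10 of them that could be summed on all arrays lay between 2534000 and 3443000 linear units. Of these 14 genes, 9 had a saturated channel. Across channels, 61.93 to 71.54% of gene spots were well above background, and the median spot signal was 115 to 222.5 units over a local background of 50 to 87 units. A gene counted as detected in a comparison when at least 1 of its 2 pools was well above background on both arrays. The number of arrays limited the precision of every ratio, and for some members so did a signal near background or at saturation.

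The sequences just before the transcription start of Pla2g2a, the member with the widest range, and of Pla2g1b, the digestive form of the pancreas, are shown. They are from RefSeq (GRCr8), each strand read 5′ to 3′. The 250 bases before Pla2g2a lie at chr5:156359475-156359724 on the plus strand and hold 52.4% G or C. Those before Pla2g1b lie at chr12:46812654-46812903 on the minus strand and hold 48.8%. Capitals mark matches to the searched patterns.
Pla2g2a: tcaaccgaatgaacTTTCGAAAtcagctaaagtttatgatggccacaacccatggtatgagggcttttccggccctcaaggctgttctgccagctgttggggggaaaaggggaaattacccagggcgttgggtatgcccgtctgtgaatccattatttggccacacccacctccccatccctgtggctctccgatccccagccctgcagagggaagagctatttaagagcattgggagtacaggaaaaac
Pla2g1b: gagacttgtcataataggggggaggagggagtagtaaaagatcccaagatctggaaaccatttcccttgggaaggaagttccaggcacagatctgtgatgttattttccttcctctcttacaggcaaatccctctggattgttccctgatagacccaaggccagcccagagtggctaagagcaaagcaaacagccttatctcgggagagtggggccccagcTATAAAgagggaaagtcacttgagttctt

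Of 6 patterns searched on both strands, each sequence held 1. Pla2g2a had a match to TTNNGNAA, a C/EBP-type pattern, as TTTCGAAA at position -236 from the start, which reads the same on both strands, and 37.2% of the 33469 promoters of this length hold that pattern. Pla2g1b had a TATA box, TATAAA, at position -29, which 12.9% of promoters hold on either strand. Only these exact letters were searched, so the lack of a match before Pla2g2a does not exclude a variant of the TATA box there. The other 4 patterns had no match in these windows: TGANTCA of AP-1 (in 6.34% of promoters), TTCNNNGAA of STAT factors (in 7.67%), TTTCCCA of the PTF1 box (in 7.10%) and the E-box CACCTG (in 15.9%).

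Pla2g2a, the group IIA enzyme, was the member with the widest range across the diets. On the FeO arrays its spot read 3254.5 intensity units in FeO against 258.5 in FeA on array 1, and 2153 in FeO against 316.5 in FeA on array 2. On the FeD arrays it read 308 in FeD against 235 in FeA on array 1, and 159 in FeD against 393 in FeA on array 2. The median spot was brighter in Cy5 than in Cy3 on every array, so pools are compared after dye normalization. On the normalized log2 intensity scale Pla2g2a was at 7.51 and 7.70 in FeD, at 8.10, 8.23, 8.48 and 7.86 in FeA and at 11.13 and 11.47 in FeO. Both FeO readings lay above all 6 others, and both FeD readings below all 4 of FeA. All 8 readings were well above background and none was saturated.

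**Figure D1:**
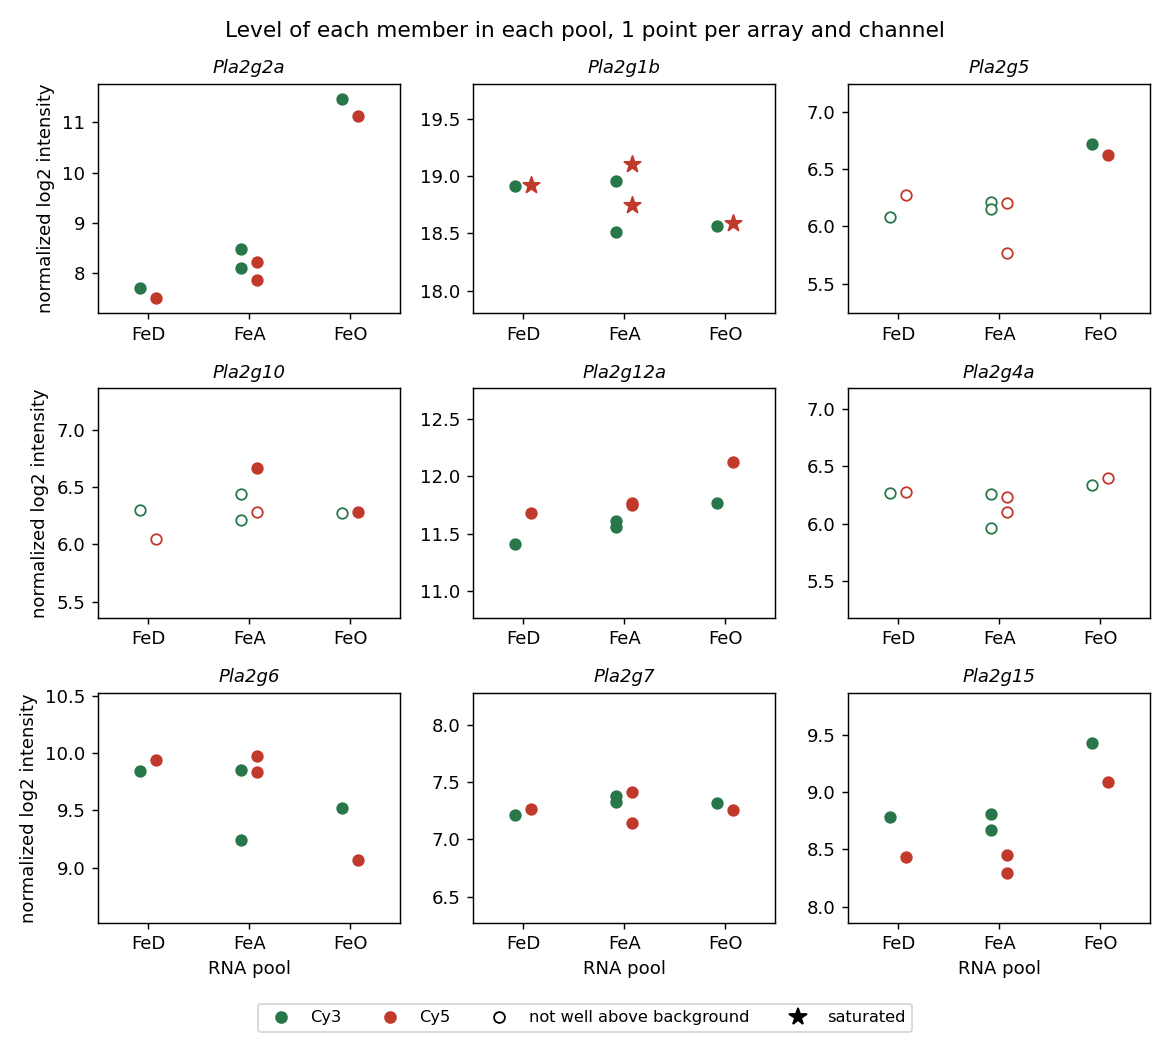
Normalized log2 intensity (vertical axis, own scale in each panel) of the 9 phospholipase A2 members in the FeD, FeA and FeO pools, 1 point per array and channel, with open points for channels not well above background and stars for saturated channels. The FeO points of Pla2g2a, at 11.13 and 11.47, stand above the FeA points, which end at 8.48, and every Cy5 point of Pla2g1b is saturated.

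Relative to FeA, Pla2g2a had a log2 ratio of 2.65 on array 1 and 3.61 on array 2 in FeO, with a mean of 3.13 ± 0.68 (SD of the 2 arrays). This was an 8.78-fold higher level in FeO, 6.29-fold on array 1 and 12.2-fold on array 2. The 2 arrays differed by 0.96 log2 units, more than the 95th percentile of that difference over all detected probes, 0.78, so that the direction was shared and the size was loosely measured. By mean ratio the gene ranked 4 of 16432 detected genes, after Reg3a, Reg1a and Reg3b, regenerating islet-derived genes that pancreatic acinar cells express under stress.

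In FeD the same gene went the other way, and the difference between the diets was not tested. Its log2 ratios were -0.59 and -0.53, with a mean of -0.56 ± 0.04, so that FeA was 1.47-fold above FeD. The arrays differed by 0.06 log2 units, against a median difference of 0.22 over all detected probes. It ranked 15620 of 15735 detected genes, near the low end of a narrow distribution in which the middle 50% of genes lay between -0.08 and 0.11.

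Pla2g1b, the digestive group IB enzyme, was so bright that its ratios are limited. Its Cy5 signal was saturated on all 4 arrays, at 750156 units in FeD and 754178 in FeA on the FeD arrays and at 696743 in FeO and 760129 in FeA on the FeO arrays. The unsaturated Cy3 signals were 215314 in FeA and 333320 in FeD on the FeD arrays, and 266283 in FeA and 313583 in FeO on the FeO arrays. Each array thus set 1 saturated channel against 1 unsaturated channel. The log2 ratios were 0.40 and 0.17 in FeD, with a mean of 0.28, and -0.37 and -0.54 in FeO, with a mean of -0.46. In FeO the ratio of the normalized values and the raw Cy3 readings, which came from different arrays, went in opposite directions, and the mean was -0.07 with median centring in place of loess, so no direction is given for this gene.

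Pla2g5, the group V enzyme, which binds readily to cell surfaces rich in phosphatidylcholine, was dim. In FeD its 4 readings, 125 and 73 units in FeD and 73 and 116 in FeA, were not well above background. In FeO the spot read 147 and 99 units in FeO, both well above background, and 71.5 and 100 units in FeA, neither of which was. On the normalized log2 scale the FeO readings were 6.62 and 6.72 and the FeA readings 6.15 and 5.77, without overlap. Against the lowest signal that counted as well above background, the level was at least 1.34-fold higher in FeO. This bound rests on that floor and is not strict. The measured log2 ratios were 0.47 and 0.95, with a mean of 0.71. The size of this ratio depends on how background is taken off: its mean ran from 0.46 to 3.08 over 4 other ways of processing.

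The other secreted members differed less. Pla2g12a, the group XIIA enzyme, was bright in every pool, with normalized log2 intensities of 11.41 and 11.68 in FeD, 11.56, 11.77, 11.61 and 11.75 in FeA and 12.12 and 11.77 in FeO. Its log2 ratios were 0.12 and -0.35 in FeD, of opposite sign, and 0.50 and 0.02 in FeO, with means of -0.12 and 0.26. The lower FeO reading equalled the highest FeA reading, so the pools were not separated. Pla2g10, the group X enzyme, an airway and gut form also activated by removal of a propeptide, was not detected: in FeO each pool passed background on 1 of 2 arrays, with log2 ratios of -0.16 and -0.40, and in FeD no reading passed, with log2 ratios of -0.16 and 0.02.

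The members outside the secreted group were mostly close to FeA. Pla2g6, the calcium-independent group VIA enzyme of membrane remodelling, had normalized log2 intensities of 9.94 and 9.84 in FeD, 9.85, 9.97, 9.24 and 9.83 in FeA and 9.07 and 9.52 in FeO. Its log2 ratios were 0.09 and -0.13 in FeD, and -0.17 and -0.31 in FeO with a mean of -0.24. The FeA readings on their own spanned 9.24 to 9.97, a wider range than any of these ratios. Pla2g7 had log2 ratios of -0.06 and -0.20 in FeD and -0.12 and 0.18 in FeO, with means of -0.13 and 0.03. Pla2g4a, the cytosolic group IVA enzyme that is selective for arachidonic acid, was not well above background in any of its 8 readings, with raw signals of 69 to 127.5 units, and no fold is given for it.

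Pla2g15, the lysosomal phospholipase A2, was the exception among them. It read 9.09 and 9.43 on the normalized log2 scale in FeO, above its FeA readings of 8.67, 8.45, 8.81 and 8.29 and its FeD readings of 8.43 and 8.78. The FeO log2 ratios were 0.28 and 1.14, with a mean of 0.71 ± 0.61, or 1.64-fold higher than FeA, and the gene ranked 248 of 16432. The arrays differed by 0.86 log2 units, beyond the 95th percentile of 0.78, so that the ratio was above 2-fold on array 2 and not on array 1. In FeD the arrays had opposite signs, -0.24 and 0.33.

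**Figure D2:**
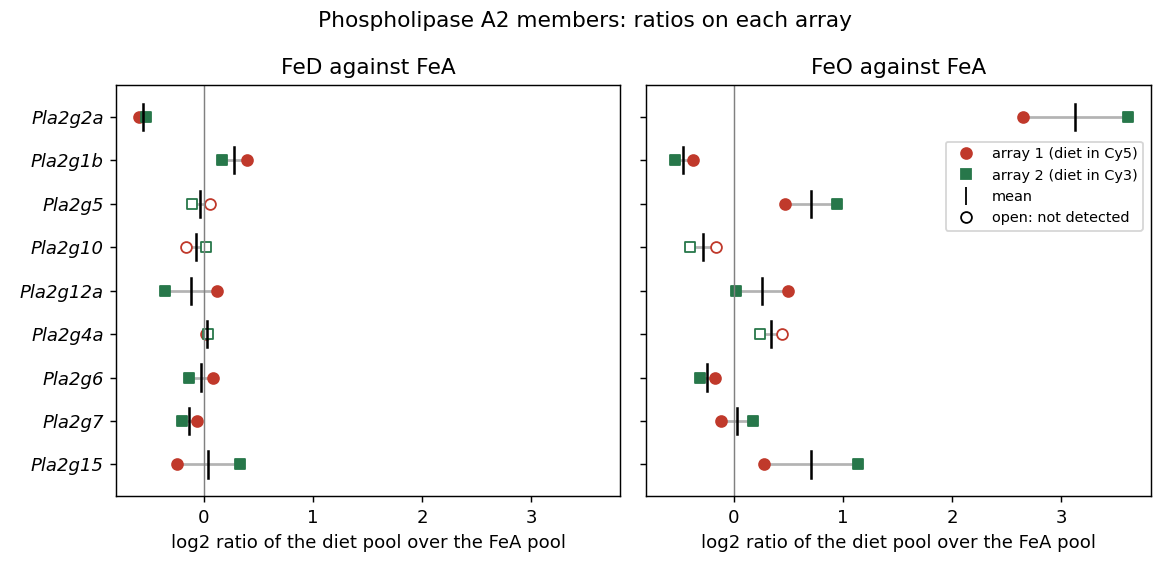
Log2 ratio of the diet pool over the FeA pool (horizontal axis) for each member on array 1 (circles) and array 2 (squares), with the mean as a bar and open symbols where the gene was not detected, for FeD (left) and FeO (right). Pla2g2a lies at -0.59 and -0.53 in FeD and at 2.65 and 3.61 in FeO, and the other members lie between -0.54 and 1.14.

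Counted over the family, 6 of 9 members were detected in FeD and 7 in FeO. None of the 6 reached a mean log2 ratio of 2 in size in FeD, where 17 of 15735 genes (0.108%) did, and none reached 1, where 59 (0.375%) did. In FeO 1 of 7, Pla2g2a, passed both sizes, against 0.195% of 16432 genes at a log2 ratio of 2 and 1.17% at 1. This share was used to choose the family and is no result about it. The sign was the same on both arrays for 3 of 6 detected members in FeD (Pla2g2a and Pla2g7, both lower, and Pla2g1b), beside 46.9% of all genes, and for 6 of 7 in FeO, with Pla2g2a, Pla2g5, Pla2g12a and Pla2g15 higher and Pla2g6 lower, beside 52.2%. Over all genes, 25.2% were higher and 21.7% lower on both arrays in FeD, and 28.1% higher and 24.2% lower in FeO. Pla2g1b is in both counts by the sign of its limited ratios, and no direction is read from it. The FeO ratios of Pla2g2a and Pla2g5 chose the family, and Pla2g5 was detected only through FeO. The FeO count of signs is therefore no result about the family either.

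Set apart by kind, all 5 secreted members had a median log2 ratio of 0.26 in FeO and all 4 others 0.18, and in FeD the medians were -0.07 and 0.00, undetected members included. Over detected members only, they were 0.49 (4 secreted) and 0.03 (3 others) in FeO and -0.12 and -0.02 in FeD. The median over all detected genes was 0.01 in each comparison. These medians describe the members and are no result about secreted forms: the FeO ratios of Pla2g2a and Pla2g5 chose the family, Pla2g5 was detected only through FeO, and the secreted median includes the limited ratio of Pla2g1b. Pla2g7 was placed with the others as an acetylhydrolase, although its product circulates in plasma.

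Along rat chromosome 5 in the RefSeq order (GRCr8) the group II and V genes follow each other as Pla2g2c, Pla2g2f, Pla2g2d, Pla2g5, Pla2g2a and Pla2g2e, and Pla2g2a lies within the annotated span of Pla2g5 on the opposite strand. Where on these transcripts the array probes lie is not given in the sources used here, so signal shared by the 2 genes was not tested. In FeO the mean log2 ratio of Pla2g5 was 0.71 beside 3.13 for Pla2g2a, but with processed signals the 2 genes were at 3.08 and 3.42, and with normexp offset 0 at 2.30 and 3.38. For the other neighbours it was 0.19 for Pla2g2c, -0.26 for Pla2g2d and -0.07 for Pla2g2e, and Pla2g2f was not detected. Pla2g2d, a form of lymphoid tissue, had 0.42 and 0.88 in FeD, with a mean of 0.65.

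The remaining phospholipases A2 and the genes around them in the pathway were counted from lists. Of 11 secreted forms on the array, 8 were detected in FeO, 5 with a higher ratio on both arrays and 3 with a lower one, and Pla2g2a was the 1 at 2-fold (median 0.17). Over all genes, 28.1% were higher and 24.2% lower on both FeO arrays, and 1.17% passed 2-fold. Among the higher were Pla2g2a and Pla2g5, whose FeO ratios chose the family, and Pla2g5 was detected only through FeO. Among the lower was Pla2g1b, for which no direction is given. In FeD 7 of the secreted forms were detected, with none at 2-fold, beside 0.375% of all genes, and a median of 0.07. Of the 5 cytosolic group IV genes, 2 were detected and neither reached 2-fold. All 6 calcium-independent genes were detected, and 1 reached 2-fold in FeO: Pnpla2, the main triglyceride lipase of fat cells, with log2 ratios of 1.44 and 1.20, and a mean of -0.28 in FeD. The 5 acetylhydrolases of platelet-activating factor lay between -0.03 and 0.15 in FeO. Pla2g16, an adipose phospholipase A2, had log2 ratios of 0.78 and 0.86 in FeO and 0.26 on both arrays in FeD.

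The genes that act before or after the enzymes had few large ratios. Beside the counts that follow, 28.1% of all genes were higher and 24.2% lower on both arrays in FeO, and 25.2% and 21.7% in FeD. Of all genes, 1.17% passed 2-fold in FeO and 0.375% in FeD. Pla2r1, the receptor of secreted forms, was not detected. Of 12 annexins, which bind membrane phospholipid and limit access of the enzymes to it, 11 were detected in FeO, with 4 higher and 4 lower on both arrays and a range from -0.79 to 0.69. Anxa9, among the higher, was detected only through FeO, so its sign is no result. Of 16 genes of lysophospholipid reacylation, which put fatty acids back, 13 were detected in FeO, 7 higher on both arrays, 0 lower on both and 6 of opposite sign between the arrays, with a median of 0.02 and none at 2-fold. Of 18 eicosanoid enzymes, 14 were detected in FeO (7 higher, 3 lower, median 0.13, none at 2-fold) and 13 in FeD (4 higher, 2 lower, median 0.03). Of the higher ones, Alox5ap and Ephx2 in FeO and Hpgds and Ephx2 in FeD were detected only through that diet's pool. Their signs are no result. The 1 at 2-fold in FeD was Alox15, the 12/15-lipoxygenase that oxidises released arachidonic acid, with log2 ratios of 3.01 and 4.00, and 0.11 and 1.31 in FeO.

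Cytokines, their receptors and transcription factors known to switch on secreted phospholipase A2 were listed together with Nos2 and Lcn2, which are targets of the same inflammatory signals and not inducers. In FeO 11 of 15 were detected, 7 higher and 1 lower on both arrays, beside 28.1% and 24.2% of all genes, with a median of 0.07. The 1 at 2-fold, beside 1.17% of all genes, was Lcn2, an acute-phase protein that binds iron-siderophores, with log2 ratios of 0.78 and 1.51. In FeD 11 were detected, 8 higher and 0 lower on both arrays, beside 25.2% and 21.7% of all genes, with a median of 0.17. None reached 2-fold, beside 0.375% of all genes. Nos2, among the higher, was detected only through FeD, so its sign is no result.

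**Figure D3:**
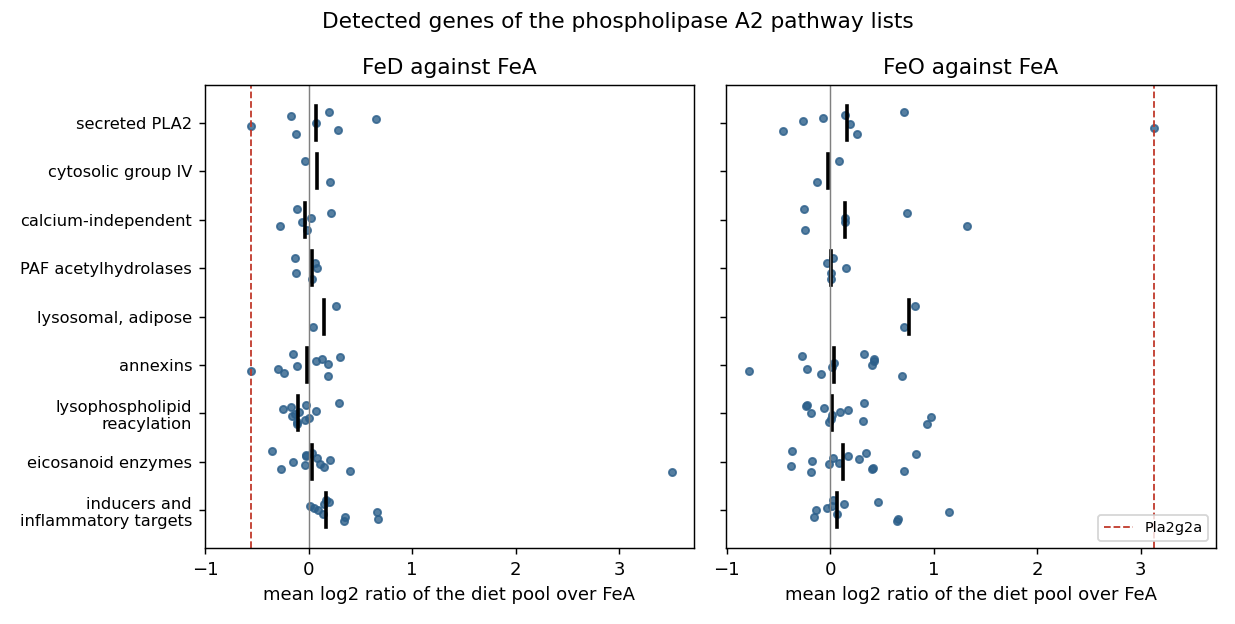
Mean log2 ratio of the diet pool over FeA (horizontal axis) for each detected gene of 9 pathway lists, with the list median as a bar and the value of Pla2g2a as a dashed line, for FeD (left) and FeO (right). List medians lie between -0.10 and 0.17 in FeD and between -0.02 and 0.77 in FeO, and the FeD point at 3.51 is Alox15.

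Markers of other cell types differed in FeO beside Pla2g2a, and whether they have a part in its ratio was not tested. Over all genes, 28.1% were higher and 24.2% lower on both arrays in FeO, and 1.17% passed 2-fold. In pooled tissue RNA, fewer cells of a type and less RNA per cell cannot be told apart. All 8 adipocyte markers were detected in FeO, 7 higher on both arrays and 5 at 2-fold, with a median of 1.65 against -0.03 in FeD. Their summed normalized intensity was 38350 to 39210 linear units in FeO and 11220 to 12240 in FeA on the same arrays, and on the FeD arrays 8730 to 9915 in FeD and 9570 to 11850 in FeA. Among them were Cfd (mean 2.30), Adipoq (2.07), Cidec (1.92) and Retn (1.83), while Plin1 was not above background in FeA or FeD and was detected only through FeO. Of 8 mast cell markers 6 were detected in FeO, all higher, with a median of 1.00, led by the chymase Cma1 (1.69) and the tryptases Tpsab1 (1.10) and Tpsb2 (1.08). Their sum was 1855 to 1905 in FeO and 979.2 to 1008 in FeA, and Ms4a2 was not above background in either pool. Hdc was detected only through FeO, so its higher sign is no result.

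Paneth cell markers, a known source of group IIA enzyme, had lower ratios in FeO. Of 9 on the array 7 were detected, 6 of them lower on both arrays, beside 24.2% of all genes, with a median of -0.54. Defa6, Defa8, Defa10 and Mmp7 were detected there only through FeA, so the filter favoured lower ratios for them. The sum of the 9 was 725.1 to 742.6 in FeO against 1223 to 1256 in FeA. In FeO 5 of 9 (Defa5, Defa6, Defa8, Defa11 and Mmp7) were not above background. In FeD 5 of 6 detected were lower on both arrays, beside 21.7% of all genes, with a median of -0.64. All 5 were detected only through FeA, so this count and median are no result. The sums were 1128 to 1162 in FeD and 1145 to 1245 in FeA. By the kind of bound given for Pla2g5, Mmp7 was at least 4.05-fold lower in FeO, while in FeD it had a mean of 1.03. Defa24, an alpha-defensin, had means of -1.63 in FeD and -1.46 in FeO. Markers of intestinal epithelium were also lower in both diets, 8 of 9 on both arrays in each. Over all genes, 21.7% were lower on both arrays in FeD and 24.2% in FeO. The medians of these markers were -1.38 in FeD and -1.82 in FeO. In both diets Fabp2, Cdh17 and the lowest probe of Muc2 were detected only through FeA, so the filter favoured their lower signs. The sums of the 9 markers were 1876 to 1988 in FeD and 1409 to 1553 in FeO, against 5207 to 5415 in FeA. Both diets were read against the same FeA pool, so the lower ratios of the 2 diets are not independent. Fabp2, the intestinal fatty acid binding protein, did not pass background in the FeD or FeO pool. By the same kind of bound it was at least 6.76-fold lower (FeD) and at least 6.32-fold lower (FeO) than in FeA. The study reported that Fabp2 in pancreas was too low for its qRT-PCR to detect. Lgals4 had FeD means of -2.24 and -2.11 by its 2 probes, whose FeO means were -3.58 and -3.60. For Tff3 the FeD mean was -2.10 and the FeO mean -2.38. The 2 probes of Alpi disagreed, with -2.41 and -0.34 in FeD and -2.58 and -0.29 in FeO.

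Macrophage and neutrophil markers differed less. The shares over all genes were 28.1% higher and 24.2% lower on both arrays in FeO. Msr1 (macrophage), S100a9 (neutrophil) and Lrrn4 (mesothelium) were not above background in FeA. They, Camp (neutrophil) and Wt1 (mesothelium) were detected only through FeO, so their higher signs are no result. For macrophages 8 of 9 were detected in FeO, 6 higher on both arrays, with a median of 0.31, and the sum was 3243 to 3459 in FeO and 2575 to 3069 in FeA, with Mrc1 not above background in either pool. For neutrophils 4 of 8 were detected, with a median of 0.00 and sums of 886.8 to 926.9 in FeO and 902.6 to 976.9 in FeA, and S100a8 and Elane were not above background in either pool. All 4 mesothelial markers were higher on both arrays in FeO (median 0.59, Wt1 at 1.11 by 1 of its 3 probes; sum 2721 to 3184 in FeO, 1556 to 1880 in FeA), and 5 of 6 fibroblast markers were (median 0.34; sum 19330 to 20220 in FeO, 12890 to 14900 in FeA). Smooth muscle markers had medians of 0.06 in FeO and -0.42 in FeD. Of the acinar markers 10 were tested in FeO, 7 lower and 1 higher on both arrays, with a median of -0.32, and many of these, like Pla2g1b, were saturated.

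**Figure D4:**
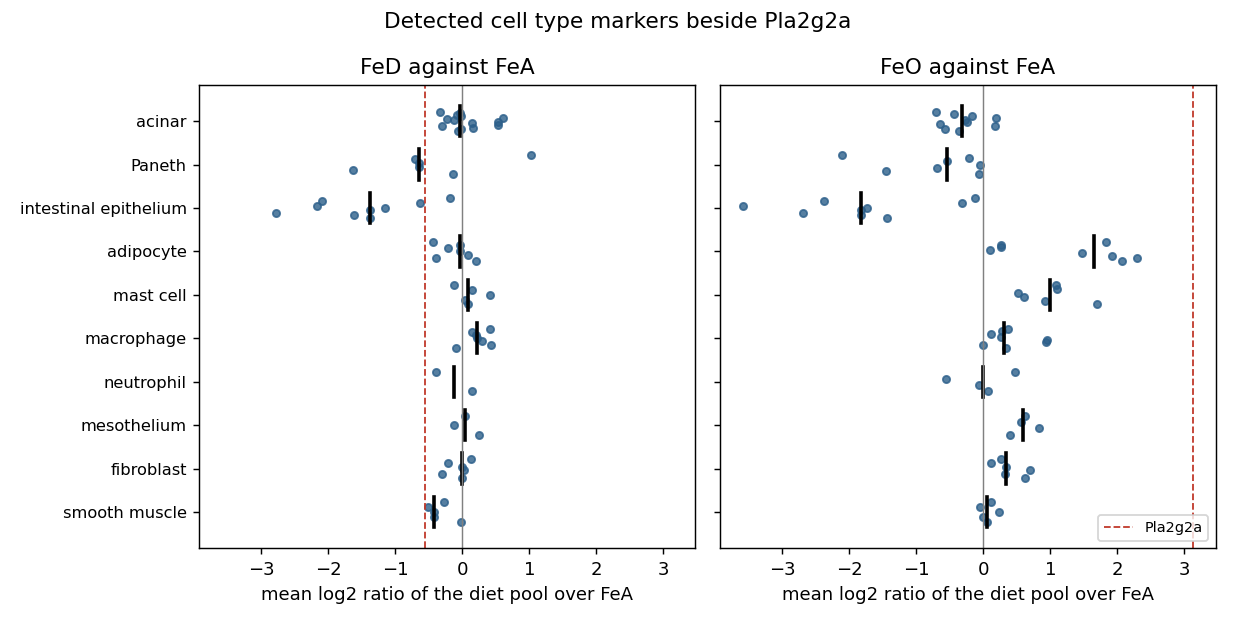
Mean log2 ratio of the diet pool over FeA (horizontal axis) for each detected gene of 10 cell type marker lists, with the list median as a bar and the value of Pla2g2a as a dashed line, for FeD (left) and FeO (right). In FeO the adipocyte median is 1.65 and the Paneth median -0.54, and no marker reaches the 3.13 of Pla2g2a.

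The genes whose 4 array ratios lay nearest to those of Pla2g2a were ranked among 15252 genes detected in both comparisons, by Euclidean distance in log2 units over the 4 arrays, which share the FeA pool. Nearest was Ucma (0.72), a cartilage matrix protein, with -0.33 and -0.66 in FeD and 2.76 and 2.96 in FeO. Next were Cfd (1.32), the fat cell protease adipsin, Car3 (1.58), a carbonic anhydrase abundant in fat and muscle, Fmo1 (1.79), a flavin monooxygenase, and a transcript without a gene name (1.80). For Pla2g1b the distances were far smaller, as its ratios were: Stk17b (0.13), Cklf (0.14), RGD1305679 (0.16), Ptpn6 (0.18) and Kcnj13 (0.19). With 1 saturated channel on every array, this second list describes limited ratios.

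**Figure D5:**
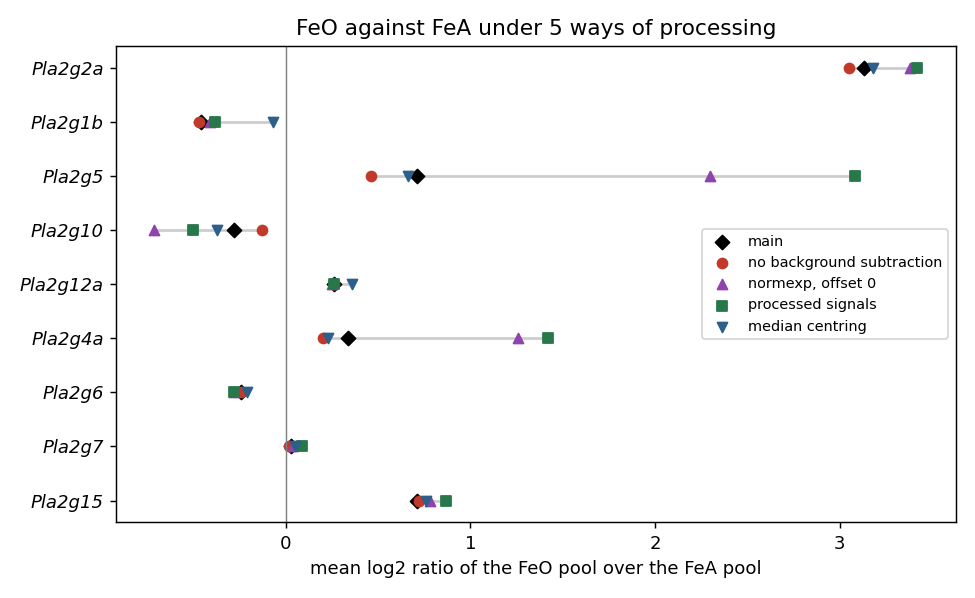
Mean log2 ratio of the FeO pool over the FeA pool (horizontal axis) for each member under 5 ways of processing the same arrays, joined by a grey line. Pla2g2a stays between 3.05 and 3.42, Pla2g5 runs from 0.46 to 3.08, and Pla2g1b from -0.47 to -0.07.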

How the data were processed

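Each intensity was deposited as read by Agilent Feature Extraction 10.1.1.1, which the submitters' processing notes name: median spot and local background signals, uncorrected, and processed signals that are background subtracted and dye normalized. The 4 arrays shared 1 scan, per the file headers. The authors' own deposited tables hold log2 fold changes, p-values, q-values and a keep or discard tag, of which nothing was used except the pairing of probes with symbols, which named 22949 of 30367 gene probes. The array's names served for the other 7418. The RefSeq symbol of the probe's accession matched for 8 of 9 members (not for Pla2g12a).

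Median signals were corrected with normexp (offset 50), which pulls ratios of dim spots towards 0, and normalized by loess within arrays and Aquantile between arrays (R 4.3.3, limma 3.58.1). Control spots were removed before loess. Outlier spots had weight 0 in loess and were left out of the probe means. Ratios were turned to diet over FeA and averaged over both arrays of a comparison. A probe was detected if 1 pool was well above background on both arrays. For a gene with several probes, signs and medians of lists used the mean over detected probes, and a gene passed a size criterion through any 1 of them. Python 3.11.15 with pandas 2.3.3 made the counts. Background correction, loess, averaging over spots and the size criterion were first tested on simulated spot intensities, and the other steps were not.

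With 1 pool per diet no test of the diets was made. The members, lists and size criteria (mean log2 ratio of 2, the study's size, or 1, with the same sign on both arrays) were chosen with earlier results of these data known. All members were named, and of each list the genes of log2 ratio 1 or more, at most 4 per list and direction, plus the 5 genes nearest to Pla2g2a and Pla2g1b. Exceptions chosen after their values were seen were the neighbours on chromosome 5, Pla2g16, Pla2r1, Plin1 and the genes named as not above background or as detected only through 1 pool. Alternatives covered background correction, normalization, the filter on dim probes, the size criterion, each array alone and the methods' t-test on the log2 values.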

Additional observations from a re-analysis of the deposited data

Results flagged for a closer look

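Pla2g2a was lower than FeA on both FeD arrays and higher on both FeO arrays. Its mean log2 ratio over FeA was -0.56 in FeD and 3.13 in FeO, a difference of 3.69 between the diets. The computed ratios of Pla2g1b also had opposite signs in the diets, which would put the difference at -0.74, but its Cy5 channel was saturated on all 4 arrays and its raw Cy3 readings in FeO went against its ratio, so that no direction is given for it. Neither difference was tested, since each diet is 1 pool and both ratios share the FeA pool.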

How the results depend on the processing

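Pla2g2a kept its direction in both comparisons under all 4 other ways of background correction and normalization and on each array alone: its FeO log2 ratio lay between 3.05 and 3.42 over the former and between 2.65 and 3.61 over single arrays. Its FeD ratio was -0.72 with normexp offset 0 and -0.78 with processed signals, and -0.59 to -0.53 over single arrays. The count of members at a log2 ratio of 2 in FeO was 1, and 2 with offset 0 and 2 with processed signals, where Pla2g5 was added, a probe dim in FeA. At 2-fold it was likewise 1, 2 with offset 0, 2 with processed signals and 1 to 2 over single arrays, where Pla2g15 passed on array 2 alone at 1.14. The methods' t-test, which takes the arrays of 1 pool as replicates, had 1458 of 18314 probes under its threshold in FeO and 1090 of 17516 in FeD, and 0 and 1 after Benjamini-Hochberg adjustment, so that 0 members passed either size in FeO after it. In FeD no member passed under any setting run. Among single members the sign changed with the processing for Pla2g5 (2 of 4 settings) and Pla2g4a (3 of 4) in FeD, both undetected there. The filter on dim probes and the choice of probe could not change a member's ratio, as each had 1 probe. No paired analysis was possible because each diet is 1 pool. The precision of every ratio rests on 2 arrays of the same RNA.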
